A study of Mus musculus with 3 samples.

Results

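The genes described here are the mouse receptors for immunoglobulin G (IgG) and the chains that carry their signal: *Fcgr1*, *Fcgr3* and *Fcgr4* (activating receptors), *Fcgr2b* (the inhibitory receptor), *Fcer1g* and *Tyrobp* (signalling chains), *Syk* (a kinase) and *Fcgrt* (the neonatal Fc receptor). They are 8 of the 32285 genes counted, chosen by name as immune-complex receptors, though earlier results of these data were known, and each was found once under its symbol. They were read in single cells from mouse glomeruli, captured in droplets, and the values are counts of unique molecular identifiers (UMIs), 1 for each RNA molecule caught. There were 3 libraries, with 1 for each condition. The MRL/lpr library came from mice that carry the lpr mutation of *Fas* and develop lupus nephritis, taken into the model at about 16 weeks of age. The MRL/lpr + hUC-MSCs library came from such mice given 800000 human umbilical cord mesenchymal stem cells by tail vein, and both were taken on day 21 after treatment. The control library came from mice whose strain is not named for this experiment, and how many mice stand behind a library is not stated. The infused cells are human, so mouse gene counts do not show them. Disease, strain, mouse and library preparation therefore cannot be told apart between the control and MRL/lpr libraries, and treatment, mouse and library preparation cannot be told apart between the MRL/lpr libraries.

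Activating Fc gamma receptors bind IgG in immune complexes and have no signalling tail of their own; they sit in the membrane with the chain that *Fcer1g* encodes, whose phosphorylated motifs recruit the kinase Syk. The inhibitory receptor from *Fcgr2b* binds the same complexes and recruits the phosphatase SHIP-1, encoded by *Inpp5d*, which dampens that signal. The neonatal receptor from *Fcgrt* works inside the cell, where it returns IgG and albumin to the surface instead of letting them be degraded. In lupus nephritis IgG complexes are deposited in glomeruli, and myeloid cells, which carry most of these receptors, are the cells best known to respond to them there.

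Barcodes with at least 1000 UMIs and at most 10% mitochondrial UMIs were read as cells, which gave 11018 in control, 14109 in MRL/lpr and 16586 in treated mice, with medians of 5069, 3716 and 2727 UMIs. Of these barcodes 74, 96 and 100 also passed in another library. Cells were sorted into classes by marker genes that include none of the 8 members, and 5.42%, 22.2% and 30.4% of cells met the rule for no class. The macrophage class held 6, 602 and 754 cells in control, MRL/lpr and treated mice, the inflammatory monocyte class 18, 177 and 189, the patrolling monocyte class 68, 1032 and 1462, the neutrophil class 27, 227 and 196, and the NK cell class 29, 48 and 41. *Fas* does not check the labels, since its level in endothelial cells was 377 CPM in control and 427 and 432 CPM in the MRL/lpr libraries. A level in CPM is the UMIs of a gene per 1000000 UMIs of the class, summed over its cells. Intervals are exact at 95% unless stated and cover nothing but counting error. Since each condition has 1 library, no test between conditions was possible, and no spread between mice is known. Control levels of macrophages, inflammatory monocytes, neutrophils and NK cells rest on fewer than 50 cells each and are given without log2 ratios of levels. Levels were also read in empty droplets (barcodes with at most 100 UMIs), which show the RNA that floats free in the suspension and enters every droplet.

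Of the 8 genes, 4 lie together on chromosome 1 of mouse build GRCm38, between bases 170958617 and 171234365, a span of 275.7 kb: *Fcgr2b*, *Fcgr4*, *Fcgr3* and *Fcer1g* in this order. *Fcgr1* lies at chr3:96282909-96293969, *Tyrobp* at chr7:30413760-30417585, *Fcgrt* at chr7:45092990-45103851 and *Syk* at chr13:52583173-52648792. *Fcgr2b* and *Fcgr3* arose by duplication and are the members whose reads could be mixed up with each other, since 9.58% of the stretches of 50 bases in *Fcgr3* transcripts also occur in *Fcgr2b*. Of the 5685 such stretches in *Fcgr2b* transcripts, 166 occur in *Fcgr3* and 83 in genes outside the members. *Fcgr2b* also overlaps the antisense gene *Gm38204* over 155 exon bases. The bases just before the transcription start are shown for 5 members, the 3 activating receptors, which hold a short motif there, and *Fcer1g* and *Fcgrt* as members without it. Capitals mark the core that the myeloid transcription factor PU.1 is known to bind, GAGGAA or TTCCTC on the other strand. The sequences are from RefSeq on build GRCm38.p6, 120 bases each, written 5′ to 3′ on the strand of the gene, from chr3:96293970-96294089 (*Fcgr1*, minus strand), chr1:171059395-171059514 (*Fcgr3*, minus), chr1:171018806-171018925 (*Fcgr4*, plus), chr1:171234350-171234469 (*Fcer1g*, minus) and chr7:45103823-45103942 (*Fcgrt*, minus).
Fcgr1: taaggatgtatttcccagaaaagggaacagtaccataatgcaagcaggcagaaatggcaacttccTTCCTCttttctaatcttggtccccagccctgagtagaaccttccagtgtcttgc
Fcgr3: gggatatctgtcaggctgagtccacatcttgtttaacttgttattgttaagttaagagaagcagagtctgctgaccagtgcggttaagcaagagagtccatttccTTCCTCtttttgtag
Fcgr4: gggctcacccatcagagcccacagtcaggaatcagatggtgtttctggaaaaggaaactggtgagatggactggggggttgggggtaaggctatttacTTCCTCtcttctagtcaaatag
Fcer1g: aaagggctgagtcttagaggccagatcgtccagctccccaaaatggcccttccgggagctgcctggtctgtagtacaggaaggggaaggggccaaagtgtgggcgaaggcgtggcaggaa
Fcgrt: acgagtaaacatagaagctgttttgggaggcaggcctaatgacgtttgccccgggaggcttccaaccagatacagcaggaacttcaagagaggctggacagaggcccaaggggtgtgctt
In *Fcgr1*, *Fcgr3* and *Fcgr4* the match starts 55, 15 and 22 bases before the start (for *Fcgr3*, from 1 of its 2 listed starts), and in each it is part of the longer run CTTCCTCT. Within 250 bases before the start, GAGGAA or TTCCTC occurred in 23.25% of 32851 mouse promoters, and in 4 of the 7 members with a listed promoter, the fourth being *Syk*. The longer AGAGGAAG or CTTCCTCT occurred in 3.67% of promoters and in 3 of the 7 members. *Fcer1g*, *Fcgr2b* and *Fcgrt* had neither run in this window, and *Tyrobp* had no entry. A match of letters describes the sequence and is not evidence of binding.

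The activating receptors were highest in macrophages (*Fcgr1* and *Fcgr3*) or patrolling monocytes (*Fcgr4*). *Fcgr1*, the high-affinity receptor, was highest in macrophages, at 255 CPM in control (12 UMIs), 79.1 in MRL/lpr and 80.9 in treated mice. It was lower in inflammatory monocytes, at 129, 38.0 and 77.2 CPM, and lower again in patrolling monocytes, at 54.0, 15.6 and 11.8 CPM. Neutrophils had 0, 1 and 4 UMIs of it in the same libraries. The intervals of these levels in MRL/lpr mice did not overlap between macrophages (70.6 to 88.4 CPM), inflammatory monocytes (27.3 to 51.6) and patrolling monocytes (12.1 to 19.8). In control and treated mice the intervals of macrophages and inflammatory monocytes overlapped, so that their order was clear in MRL/lpr mice alone.

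*Fcgr3*, a low-affinity receptor and the only Fc gamma receptor NK cells are known for, was spread more evenly over the myeloid classes. Macrophages had 511, 354 and 286 CPM in control, MRL/lpr and treated mice, neutrophils 309, 251 and 189, inflammatory monocytes 241, 198 and 156, and patrolling monocytes 216, 147 and 95.9. In MRL/lpr mice neutrophils and inflammatory monocytes had overlapping intervals, 209 to 298 and 172 to 226 CPM, while the other neighbours in this order did not. Its level was lower in the treated than in the MRL/lpr library in each of these 4 classes, and its control level lay above that of MRL/lpr mice in each, though the intervals of control and MRL/lpr mice overlap except in patrolling monocytes.

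*Fcgr4*, which binds IgG2a and IgG2b, had its peak in patrolling monocytes. These had 940.4 CPM in control, 781 in MRL/lpr and 620.2 in treated mice, against 404, 305 and 262 in macrophages, 116, 159 and 176 in neutrophils and 80.5, 40.8 and 40.8 in inflammatory monocytes. In MRL/lpr mice patrolling monocytes were 2.56-fold above macrophages (log2 1.36, 95% interval 1.26 to 1.45) and 19.1-fold above inflammatory monocytes. For *Fcgr1* this pair stood the other way, with patrolling monocytes 5.07-fold below macrophages.

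*Fcgr2b*, the inhibitory receptor, followed neither order. It had 319, 82.2 and 50.1 CPM in macrophages of control, MRL/lpr and treated mice, and 145, 81.6 and 84.7 CPM in inflammatory monocytes. Patrolling monocytes had 15.4 (4 UMIs), 21.3 and 33.7 CPM and neutrophils 19.3 (1 UMI), 15.7 and 25.5. In MRL/lpr mice macrophages and inflammatory monocytes were within counting error of each other (log2 -0.01, interval -0.37 to 0.33), and patrolling monocytes were 3.85-fold below macrophages.

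The UMIs of the activating receptors for each UMI of *Fcgr2b* give their balance within a class, which does not depend on scaling between libraries. Capture can differ between genes, so this ratio is read between classes and libraries and not against equality. In MRL/lpr mice it was 44.3 in patrolling monocytes (interval 36.0 to 55.0), 26.3 in neutrophils (13.1 to 61.6), 8.99 in macrophages (8.01 to 10.1) and 3.39 in inflammatory monocytes (2.66 to 4.35). Patrolling monocytes and neutrophils overlapped, and the other neighbours did not. Both monocyte classes thus stood at the ends of this order, with 3.11 and 78.5 in control and 3.23 and 21.6 in treated mice for inflammatory and patrolling monocytes.

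Receptor UMIs were sparse in single cells. After each cell was thinned to 1000 UMIs, 45.5% of the 602 macrophages of MRL/lpr mice showed only activating receptors, 2.49% only *Fcgr2b* and 3.65% both. In patrolling monocytes these shares were 56.1%, 0.872% and 1.16% of 1032 cells, in inflammatory monocytes 23.7%, 5.65% and 1.69% of 177. Before thinning, at median depths of 6038, 3666 and 5931 UMIs, *Fcgr2b* and an activating receptor were seen together in 27.9% of macrophages, 6.78% of patrolling monocytes and 31.6% of inflammatory monocytes. All 3 activating receptors were seen together in 20.6%, 2.03% and 2.26% of cells before thinning.

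The signalling chains were far more abundant in UMIs than the receptors and were found in nearly every myeloid cell. *Fcer1g* had 7024 CPM in patrolling monocytes, 5099 in macrophages, 4179 in inflammatory monocytes and 3895 in neutrophils of MRL/lpr mice, and 7076, 4817, 4193 and 4015 CPM in treated mice. Control mice had less in all 4 classes, at 3966, 3553, 2792 and 2086 CPM. *Tyrobp*, which encodes DAP12, a chain that pairs with other activating receptors such as Trem2, was ordered differently. It had 5056 CPM in neutrophils, 4186 in inflammatory monocytes, 3642 in patrolling monocytes and 3336 in macrophages of MRL/lpr mice. Thinned to 1000 UMIs, 97.3% of macrophages, 99.2% of patrolling monocytes, 96.6% of inflammatory monocytes and 94.3% of neutrophils of MRL/lpr mice had *Fcer1g*.

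*Syk*, the kinase that both chains recruit, had 543, 491 and 516 CPM in patrolling monocytes of control, MRL/lpr and treated mice and 560.2, 446 and 431 CPM in neutrophils. Macrophages had 192, 255 and 246 CPM and inflammatory monocytes 386, 234 and 233. Patrolling monocytes and neutrophils overlapped in MRL/lpr mice, with intervals of 471 to 512 and 390.2 to 508 CPM. So did macrophages and inflammatory monocytes, with 239 to 271 and 206 to 264 CPM.

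*Fcgrt* had levels in several kidney classes that lay within the range of the myeloid classes. In MRL/lpr mice it had 285 CPM in macrophages, 140.5 in proximal tubule cells, 118 in mesangial cells, 51.0 in endothelial cells, 44.3 in patrolling monocytes, 24.1 in inflammatory monocytes, 15.7 in neutrophils and 12.1 in podocytes. Endothelial cells and patrolling monocytes overlapped, with intervals of 48.1 to 54.0 and 38.3 to 51.0 CPM. The interval of neutrophils (6.76 to 30.9) overlapped those of podocytes (9.71 to 14.8) and inflammatory monocytes (15.8 to 35.3), which did not overlap each other.

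**Figure D1:**
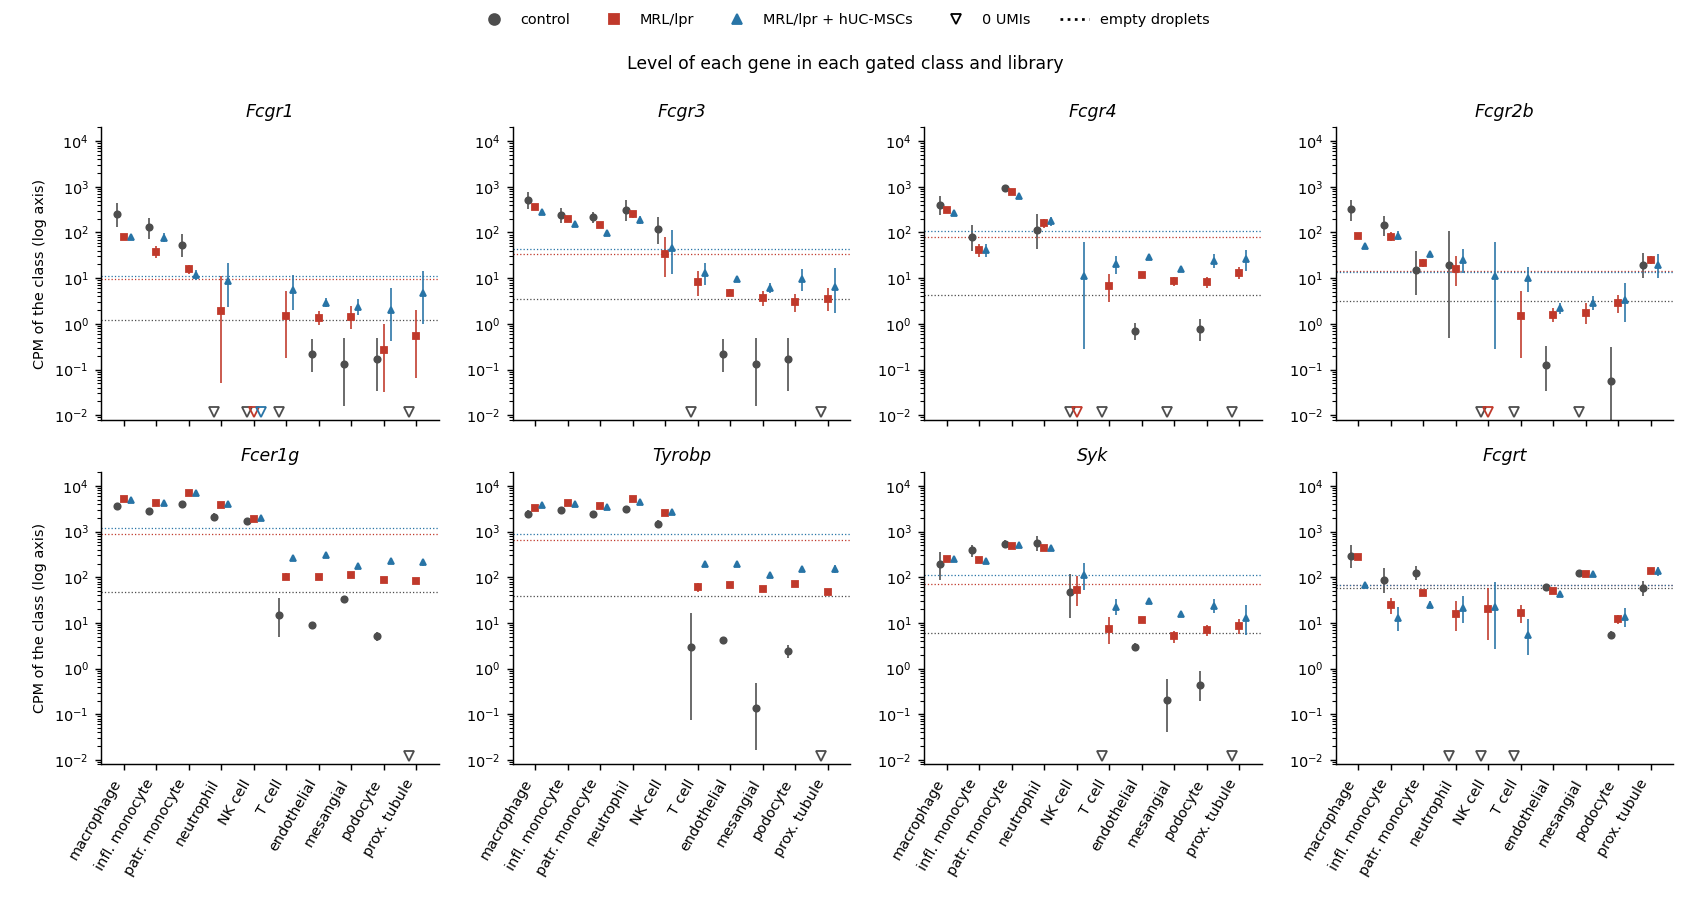
Level of each member (CPM of the class, log axis) in 10 classes and 3 libraries; points are levels, bars are exact 95% Poisson intervals, open triangles mark 0 UMIs and dotted lines the level in empty droplets of each library. *Fcgr4* peaked in patrolling monocytes and *Fcgr1* in macrophages, and in kidney cells 7 of the 8 members lay mostly below the dotted lines, with *Fcgrt*, and *Fcgr2b* in proximal tubule cells, as exceptions.

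Across the 30 class levels with at least 50 cells (log2 of CPM plus 10), the genes most like each member were read out of 14257. *Syk* was most like *Spi1*, the gene of PU.1 (r = 0.995), then *Cd300a*. *Fcer1g* and *Tyrobp* were most like each other (r = 0.99), followed by *Lst1* and *Lyz2* for both. *Fcgr4* was most like *Ear2*, *Cd300ld* and *Slc11a1*, *Fcgr3* like *Lrrc25*, *Clec12a* and *Pira2*, and *Fcgr1* like *Ly86*, *Zfp385a* and *P2ry6*, all with r from 0.95 to 0.99. *Fcgr2b* was most like *Shtn1* (0.93), then *H2-Eb1* and *Ppfia4*. *Fcgrt* had the weakest likeness, with *Acsf2* (0.83), *Aldh2* and *Lima1*, and its own r with the other 7 members ran from 0.12 to 0.27. These values describe levels that share libraries and free RNA, and they carry no test.

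Between treated and untreated MRL/lpr mice the largest difference within the 4 myeloid classes, among members with at least 20 UMIs over both libraries, was in *Fcgrt* of macrophages. It had 1121 UMIs in 602 untreated macrophages and 286 in 754 treated ones, 285 and 69.2 CPM, a log2 ratio of -2.04 (interval -2.23 to -1.85) or 4.12-fold lower. *Fcgr2b* was also lower in treated macrophages, at 50.1 against 82.2 CPM, with a log2 ratio of -0.71 (-0.97 to -0.46). *Fcgr3* and *Fcgr4* were lower by less, with -0.31 (-0.42 to -0.20) and -0.22 (-0.34 to -0.10), and *Tyrobp* was higher, with 0.20 (0.16 to 0.23). *Fcgr1* (0.03), *Syk* (-0.05) and *Fcer1g* (-0.08, interval -0.11 to -0.05) lay closest to 0. A call here is a ratio past 2-fold. Of the 8 members 1 was lower by this rule, *Fcgrt*, and 0 were higher, beside 6.80% lower and 4.13% higher of 11289 genes with at least 20 UMIs over both libraries. The median log2 ratio of all these genes was -0.13, and against it *Fcer1g* and *Fcgr4* differ little.

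The makeup of the macrophage class differed between these libraries. *Cd5l*, a marker of some resident macrophages, had 630 CPM in untreated and 103 in treated macrophages, and *C1qa* had 4809 and 2645. Macrophages with *Cd5l* UMIs and none of *Gpnmb* were 55.5% of the untreated and 8.09% of the treated class, and those with *Gpnmb* and without *Cd5l* 2.66% and 40.3%. This split was chosen after the data had been seen. In untreated mice *Fcgrt* had 357 CPM in the *Cd5l* subset and 75.1 in the *Gpnmb* subset (11 UMIs), and in treated mice 140 and 53.1. Within the *Cd5l* subset the log2 ratio of treated over untreated was -1.35 (-1.80 to -0.93). Among macrophages with UMIs of neither gene it was -1.57 (-1.92 to -1.24), from 202 to 67.8 CPM, and in the *Gpnmb* subset -0.50 (-1.40 to 0.54). The split rests on seeing a UMI of either gene, at median depths of 6038 UMIs in untreated and 4672.5 in treated macrophages, so the subsets are not matched for marker level, and the part of the makeup in the *Fcgrt* ratio was not tested.

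*Fcgr2b* was lower in treated mice in all 3 of these subsets, with log2 ratios of -0.98 (-2.02 to -0.10), -1.55 (-2.25 to -0.77) and -0.80 (-1.20 to -0.40) in the *Cd5l*, *Gpnmb* and neither subsets. *Fcgr4* went both ways, with 0.37 (0.07 to 0.66), 2.05 (1.00 to 3.38; 7 UMIs in untreated mice) and -0.29 (-0.47 to -0.12). *Tyrobp* was lower in the *Cd5l* subset (-0.14, -0.24 to -0.05) and higher in the *Gpnmb* and neither subsets (0.52 and 0.25). *Fcgr1* had 0.34, -0.80 and -0.12, and only the *Gpnmb* value had an interval without 0 (-1.50 to -0.03).

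**Figure D2:**
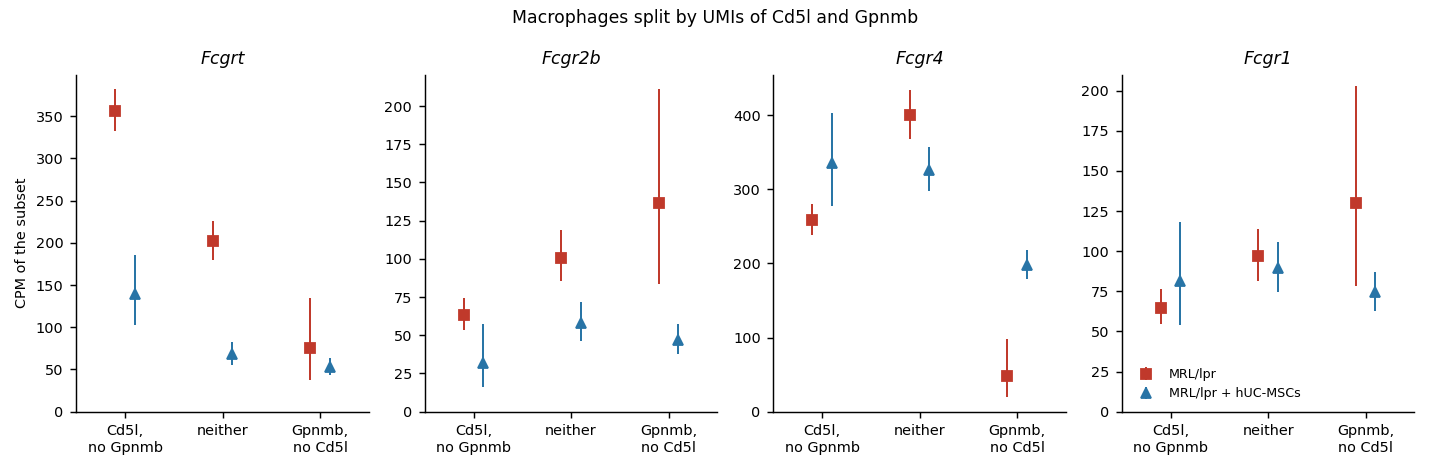
Levels of *Fcgrt*, *Fcgr2b*, *Fcgr4* and *Fcgr1* (CPM of the subset) in macrophages split by UMIs of *Cd5l* and *Gpnmb*, in MRL/lpr and treated mice; bars are exact 95% Poisson intervals. *Fcgrt* and *Fcgr2b* points of treated mice lie below those of untreated mice in each subset, while *Fcgr4* lies above in 2 of the 3.

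In inflammatory monocytes *Fcgr1* was the only member past 2-fold. It had 41 UMIs in 177 untreated cells and 72 in 189 treated cells, 38.0 and 77.2 CPM, with a log2 ratio of 1.02 (0.45 to 1.61), so its interval reaches well below 2-fold. The call was lost under 5 alternatives, with log2 ratios of 0.92 to 0.99 with 4 of them and 0.50 with Leiden clusters in place of the marker rule. With 1 of 8 members higher and 0 lower, the background was 1.86% higher and 4.28% lower of 7306 genes. *Fcgr3* went the other way (-0.35, -0.66 to -0.03), and *Fcgr4*, *Fcgr2b*, *Fcer1g* and *Syk* had log2 ratios from -0.01 to 0.05 with intervals around 0. *Fcgrt* had 24.1 and 12.9 CPM, from 26 and 12 UMIs, a ratio within counting error (-0.91, -2.03 to 0.13).

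In patrolling monocytes 0 of 8 members were past 2-fold, beside 2.68% higher and 4.17% lower of 11371 genes. The inhibitory receptor stood apart in direction, since *Fcgr2b* was higher in treated mice, from 21.3 to 33.7 CPM (93 and 166 UMIs), with a log2 ratio of 0.66 (0.29 to 1.04). *Fcgrt* was lower, from 44.3 to 25.2 CPM (-0.81, -1.15 to -0.48), as were *Fcgr3* (-0.62, -0.79 to -0.45) and *Fcgr4* (-0.33, -0.40 to -0.26). *Fcer1g*, *Tyrobp* and *Syk* differed little, with 0.01, -0.05 and 0.07.

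In neutrophils 0 of the 6 members with at least 20 UMIs were past 2-fold, beside 4.45% higher and 6.70% lower of 4759 genes. *Fcgr3* (-0.41, -0.82 to -0.01) and *Tyrobp* (-0.21, -0.30 to -0.13) were lower in treated mice. *Fcgr4* (0.15, -0.31 to 0.61), *Fcer1g* (0.04) and *Syk* (-0.05) had intervals that include 0. *Fcgr2b*, with 8 and 12 UMIs, had 0.70 (-0.71 to 2.20), which leaves its direction undetermined at this depth.

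**Figure D3:**
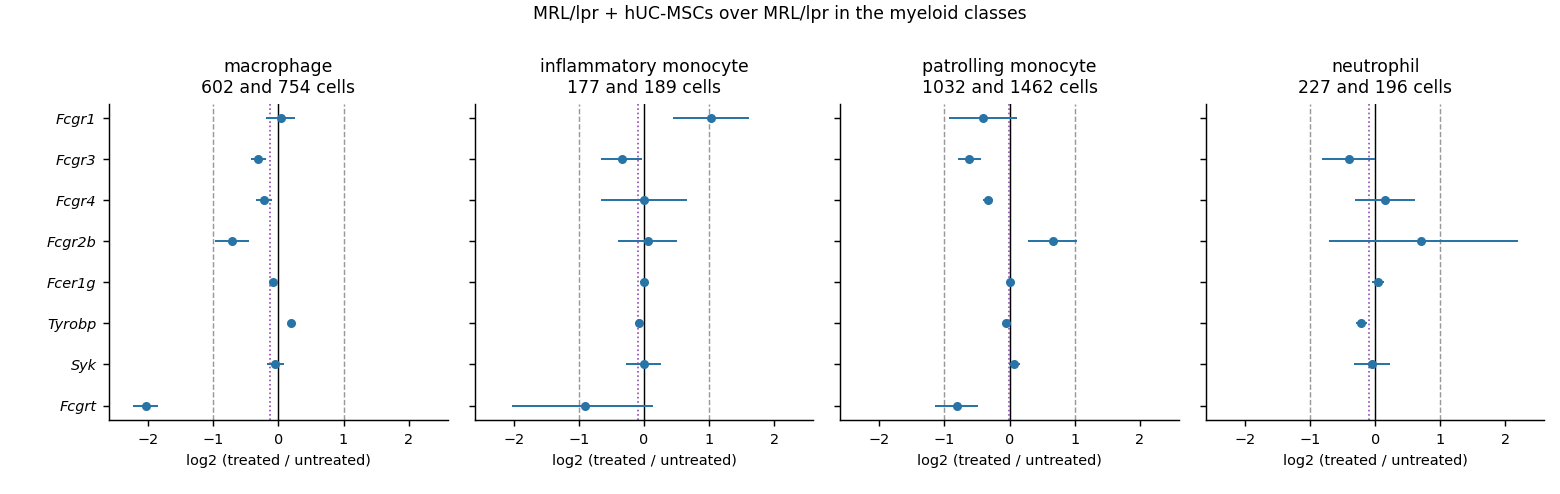
Log2 ratio of treated over untreated MRL/lpr mice for each member in 4 myeloid classes; points are ratios of levels, bars exact 95% intervals, dashed lines 2-fold and the dotted line the median of all genes tested in the class. *Fcgrt* in macrophages lies at -2.04, *Fcgr2b* lies left of 0 in macrophages and right of it in patrolling monocytes, and *Fcgr1* and *Fcgrt* of neutrophils are not drawn because they had fewer than 20 UMIs over both libraries.

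The balance of activating receptors to *Fcgr2b* therefore differed between the libraries in opposite directions in these classes. In macrophages it was 8.99 in untreated and 12.6 in treated mice, a log2 difference of 0.48 (0.22 to 0.74; intervals of these differences are normal approximations from the UMI counts). In patrolling monocytes it was 44.3 and 21.6, a log2 difference of -1.03 (-1.41 to -0.66). Inflammatory monocytes had 3.39 and 3.23, a difference of -0.07 (-0.57 to 0.43), and neutrophils 26.3 and 14.7, with -0.84 (-2.16 to 0.48). Between control and MRL/lpr mice macrophages had 3.67 and 8.99 (1.29, 0.45 to 2.13), but the control value rests on 6 cells. Patrolling monocytes, with 68 control cells, had 78.5 and 44.3, a log2 difference of -0.83 (-2.28 to 0.63).

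**Figure D4:**
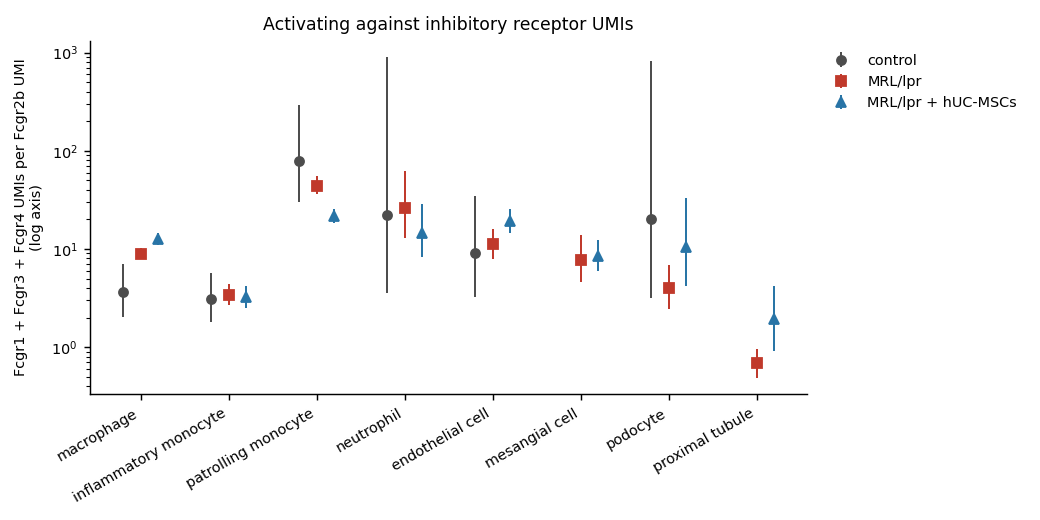
UMIs of *Fcgr1*, *Fcgr3* and *Fcgr4* together for each UMI of *Fcgr2b* (log axis) in 8 classes and 3 libraries; points are ratios, bars exact 95% intervals, and classes without a UMI of *Fcgr2b* or with fewer than 20 UMIs in all are left out. Patrolling monocytes lie highest in each library and inflammatory monocytes lowest of the myeloid classes.

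Untreated MRL/lpr mice were compared with control mice only in patrolling monocytes among the myeloid classes, since the others held fewer than 50 control cells. *Fcgr1* had 54.0 CPM in control (14 UMIs) and 15.6 in MRL/lpr mice, a log2 ratio of -1.79 (-2.63 to -0.85), and *Fcgrt* 127 and 44.3 CPM, with -1.52 (-2.06 to -0.94). *Fcer1g* was higher in MRL/lpr mice, from 3966 to 7024 CPM (0.82, 0.73 to 0.92), and so was *Tyrobp*, from 2444 to 3642 (0.58, 0.46 to 0.69). *Fcgr3* (-0.55) and *Fcgr4* (-0.27) were lower with intervals below 0, and *Syk* (-0.15) and *Fcgr2b* (0.47, 4 UMIs in control) had intervals that include 0. Of the 8 members 2 were lower and 0 higher past 2-fold, beside 13.1% lower and 11.3% higher of 9774 genes. With Leiden clusters 4 members were past 2-fold, *Fcgr1* at -2.70 and *Fcer1g* higher at 1.24 among them. The share of all genes was not computed there. The median log2 ratio of all genes was -0.12.

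NK cells, with fewer than 50 cells in each library, had UMIs of both chains above their levels in empty droplets. *Fcer1g* had 1679, 1920 and 1969 CPM and *Tyrobp* 1505, 2610 and 2729 CPM in control, MRL/lpr and treated mice. *Fcgr3* had 117, 33.5 and 44.7 CPM from 10, 5 and 4 UMIs, and the intervals of the 3 libraries overlap. Empty droplets held 3.42, 34.4 and 43.9 CPM of it, so the interval of *Fcgr3* in NK cells lay above empty droplets in control mice alone. Free RNA, estimated from markers of other classes, was 2.91%, 9.80% and 9.75% of NK cell UMIs in these libraries. The level in empty droplets therefore overstates what free RNA would add to these cells, and it does not decide the source of their *Fcgr3* UMIs. *Fcgr1* had 0 UMIs in each library, which allows up to 35.0 CPM in control mice by a floor of 3 counts, and *Fcgr4* and *Fcgr2b* had 1 UMI each, in treated mice. T cells, which lack these receptors, had *Fcer1g* at 15.1, 103 and 260.1 CPM and *Tyrobp* at 3.03, 60.3 and 192 CPM, against 47.1, 895 and 1202 CPM of *Fcer1g* in empty droplets. B cells, for which *Fcgr2b* is the one known Fc gamma receptor, were few, with 9, 8 and 11 cells, and had 2, 3 and 1 UMIs of *Fcgr2b* and 0 of the activating receptors.

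In glomerular cells 7 of the 8 members were low and lay below their levels in empty droplets in most classes and libraries. In endothelial cells *Fcer1g* had 9.04 CPM in control, 101 in MRL/lpr and 302 in treated mice, and *Tyrobp* 4.27, 68.1 and 196. *Fcgr4* had 0.696, 11.4 and 29.6 CPM. Relative to empty droplets of the same library, *Fcer1g* stood at 0.192, 0.113 and 0.252 and *Tyrobp* at 0.111, 0.104 and 0.219.

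These levels were higher in MRL/lpr than in control mice. In endothelial cells 7 of the 8 members were past 2-fold higher, beside 14.0% of 15518 genes, in podocytes all 7 with at least 20 UMIs, beside 12.4% of 13223, and in mesangial cells 5 of 6, beside 10.5% of 13714. In proximal tubule cells 4 of 6 were, beside 20.4% of 10633, and there the median log2 ratio of all genes was itself 0.27. A member with few UMIs in control mice could enter these counts only through the MRL/lpr library, so they describe those that entered. The podocyte count was 3 or 4 and the mesangial count 1 or 3 under some alternatives, for which the share of all genes was not computed. In empty droplets the 7 members other than *Fcgrt* were higher by log2 ratios of 2.20 (*Fcgr2b*) to 4.25 (*Fcer1g*) in MRL/lpr mice. *Fcgrt*, at 0.20 in empty droplets, was among the calls in podocytes (1.15) and proximal tubule cells (1.28). Its podocyte call did not hold with free RNA subtracted, as given below. Defining myeloid markers moved with them in endothelial cells, where *C1qa* had 2, 744 and 1081 UMIs and *Lyz2* 3.79, 126 and 317 CPM in control, MRL/lpr and treated mice. Of the 29 macrophage, monocyte and neutrophil markers, 28, 29 and 29 had UMIs there, summing to 642, 999 and 1092 CPM. In control cells *C1qa* and *S100a8* held 2 and 33 of the 20295 UMIs in this sum, which thus lies mostly in other markers of the list. Free RNA was then estimated in each class from markers of other classes, at 4.70%, 15.3% and 17.8% of endothelial UMIs in control, MRL/lpr and treated mice, and subtracted. In endothelial cells this left 0 of 2367 *Fcer1g* UMIs, 0 of 1595 *Tyrobp* UMIs and 10.9 of 270 *Syk* UMIs in MRL/lpr mice, against 216 of 286, 77.7 of 135 and 84.0 of 93 in control mice. Under this subtraction the call of higher levels in MRL/lpr mice did not hold in endothelial cells for *Fcer1g*, *Tyrobp*, *Syk*, *Fcgr4* and *Fcgr1*. A member below the share subtracted is left at 0. *Fcer1g* (0.113 times empty droplets), *Tyrobp* (0.104), *Fcgr4* (0.1465) and *Fcgr1* (0.1458) lay below it, so the subtraction cannot decide their calls. In 1009 control and 401 MRL/lpr endothelial cells without a UMI of the 29 markers, *Fcer1g* had 8.12 and 74.6 CPM and *Tyrobp* 0.542 and 41.1. Intervals overlapped there for *Syk* and *Fcgr1* but not for *Fcer1g*, *Tyrobp* and *Fcgr4*. A cell without such a UMI is more often one of low depth, so these cells are not matched to their class.

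Between treated and untreated MRL/lpr mice some members were also higher in several kidney classes. In endothelial cells 5 of 8 were past 2-fold higher, beside 7.08% of 15701 genes: *Fcer1g* (1.58, interval 1.51 to 1.65), *Tyrobp* (1.52), *Syk* (1.41), *Fcgr4* (1.37) and *Fcgr1* (1.09). In podocytes 5 of 7 were, beside 5.01% of 11684, in proximal tubule cells 2 of 6, beside 5.37% of 10816, and in mesangial cells 1 of 8, *Syk* (1.65), beside 4.87% of 13706. The mesangial count was 5 to 7 under 4 alternatives, and *Tyrobp* lay just under 2-fold there (1.00). The share of all genes past 2-fold was not computed under alternatives, so these counts have no background beside them. The median log2 ratio of all genes was 0.12 in endothelial, 0.13 in mesangial and -0.11 in proximal tubule cells. The free RNA of the members was higher in the treated library too, by log2 ratios of 0.22 (*Fcgr1*) to 0.62 (*Syk*), apart from *Fcgr2b* (-0.05) and *Fcgrt* (-0.01). The lower median depth of treated endothelial cells (2825 against 3771 UMIs) and the larger share of cells without a class moved with these differences as well. With free RNA subtracted as above, 2169 of 7465 *Fcer1g* UMIs and 892 of 4842 *Tyrobp* UMIs were left in treated endothelial cells, against 0 of each in untreated ones. The 0 in untreated cells follows from the share subtracted, as said above. In endothelial cells without a myeloid marker UMI, *Fcer1g* had 74.6 CPM in untreated and 158 in treated mice, and *Tyrobp* 41.1 and 115. Doublets beyond those the marker rule leaves out were kept. With those scored by Scrublet, a doublet finder, removed, the log2 ratios in endothelial cells were 1.39 for *Fcer1g* and 1.11 for *Fcgr4*. Among clusters of treated cells, 357 cells named endothelial with patrolling monocytes as next class were 95.2% such doublets. The highest share in an untreated endothelial cluster was 80.3%, with T cells as next class (147 cells). The part of doublets, depth and unclassed cells in these differences was not tested.

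*Fcgrt* was above its level in empty droplets in mesangial cells of each library. It had 126, 118 and 117 CPM in control, MRL/lpr and treated mice, 2.13, 1.74 and 1.74 times its level in empty droplets. Its log2 ratios there were -0.09 (-0.20 to 0.02) for MRL/lpr over control and -0.01 (-0.13 to 0.11) for treated over untreated mice. Endothelial cells had 61.0, 51.0 and 43.9 CPM, with log2 ratios of -0.26 (-0.36 to -0.15) and -0.21 (-0.33 to -0.10). Podocytes had only 5.45, 12.1 and 13.6 CPM, 0.0923, 0.178 and 0.202 times the level in empty droplets. With free RNA subtracted, 51.5 of 98 *Fcgrt* UMIs were left in control podocytes, 20.6 of 90 in MRL/lpr and 7.16 of 20 in treated ones. The share subtracted was 4.38% of UMIs in control and 13.7% in MRL/lpr podocytes. The call of a higher *Fcgrt* level in MRL/lpr than in control podocytes did not hold under this subtraction. Proximal tubule cells, which take up filtered protein, had 57.9, 140.5 and 135 CPM. Cells without a UMI of any of the 29 myeloid markers had *Fcgrt* at 113, 192 and 157 CPM in 99, 55 and 131 mesangial cells. The MRL/lpr (124 to 283) and treated (118 to 203) intervals lay above their class levels, while the control interval (78.3 to 156) held its own. In 31 control and 139 MRL/lpr proximal tubule cells of this kind it had 51.4 and 140 CPM. This choice favours cells of low depth, so these cells are not matched to their class.

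Some further members had levels in a kidney class that were high beside those of *Tyrobp*, and *Fcgr2b* and *Fcer1g* are described first. *Fcgr2b* had 19.9 CPM in proximal tubule cells of control mice (11 UMIs in 54 cells), 25.3 in MRL/lpr (92 UMIs in 539 cells) and 19.3 in treated mice (12 UMIs in 77 cells), which is 6.40, 1.78 and 1.40 times its level in empty droplets. In the same control cells *Fcer1g*, *Tyrobp*, *Fcgr3* and *Fcgr4* had 0 UMIs, and in those of MRL/lpr mice *Tyrobp* stood at 0.0743 times empty droplets. In the 139 MRL/lpr proximal tubule cells without any myeloid marker UMI, *Fcgr2b* had 27.7 CPM (21 UMIs; 17.1 to 42.3), and in the 31 such control cells 5.14 CPM (1 UMI; 0.130 to 28.6). The part of the overlapping antisense gene *Gm38204*, or of genes that share stretches with *Fcgr2b*, in these UMIs was not tested.

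*Fcer1g* was the other, in control mesangial cells. It had 494 UMIs there (33.2 CPM), beside 2 UMIs of *Tyrobp* and 0 of *C1qa*, *C1qb* and *C1qc* but UMIs of 20 of the 29 myeloid markers, summing to 812.9 CPM or 1.07 times empty droplets, whereas empty droplets of that library held 122 UMIs of *Fcer1g* for every 100 of *Tyrobp*. *Cd300e* and *S100a8* held 1 and 7 of the 12108 marker UMIs there, so the sum lies almost wholly in other markers of the list. In the 99 of 1069 control mesangial cells without a myeloid marker UMI it had 64.3 CPM (20 UMIs; 39.3 to 99.2) and *Tyrobp* had 0. Such cells still held *Tyrobp* in the other libraries. There *Fcer1g* and *Tyrobp* had 46.1 and 69.1 CPM in 55 MRL/lpr cells and 134 and 86.7 CPM in 131 treated cells. In endothelial cells and podocytes of that library *Fcer1g* had 9.04 and 5.06 CPM. *Syk* also stood high beside *Tyrobp* in control endothelial cells, with 68.9 UMIs for every 100 of *Tyrobp* against 15.7 in empty droplets. Its level there was 0.485 times that in empty droplets.

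**Figure D5:**
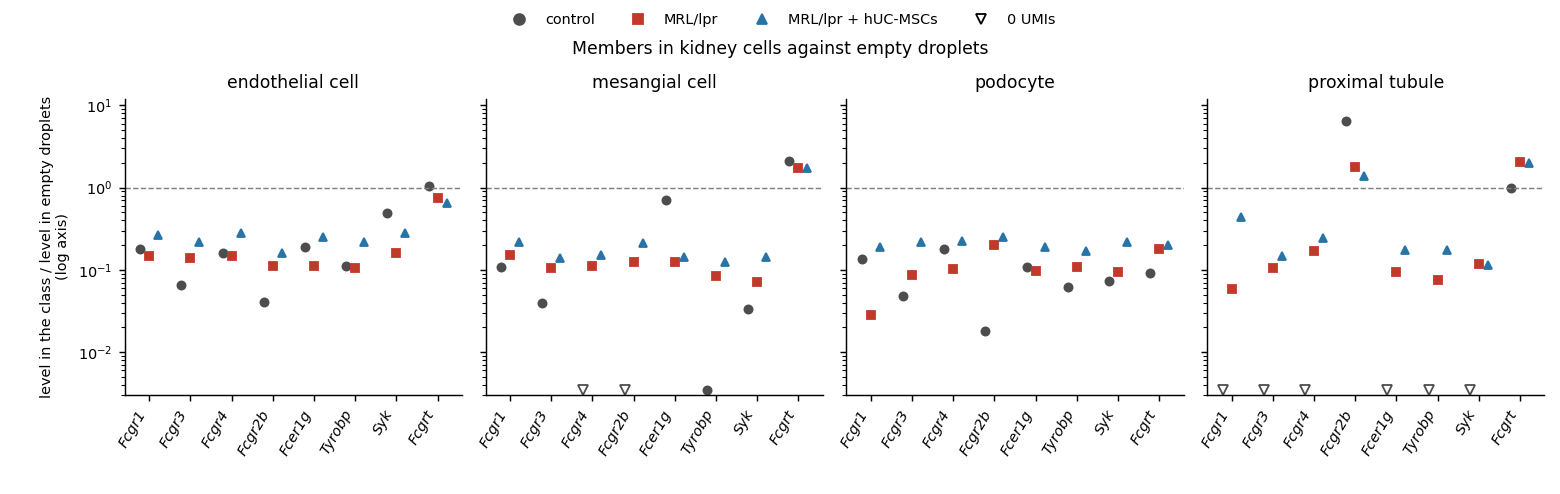
Level of each member in 4 kidney classes over its level in empty droplets of the same library (log axis), where 1 means as much as in free RNA; points are libraries and open triangles mark 0 UMIs. Most points lie between 0.03 and 0.3, while *Fcgrt* in mesangial and proximal tubule cells and *Fcgr2b* in proximal tubule cells lie near or above 1, and *Fcer1g* in control mesangial cells lies at 0.704.

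The partners and the downstream pathway were followed in 4 lists of genes. Of 18 receptors that pair with the *Fcer1g* or *Tyrobp* chains, 15 could be compared in macrophages. Past 2-fold, 4 were higher and 4 lower in treated mice, beside 4.13% higher and 6.80% lower of 11289 genes. Their median log2 ratio was -0.63 beside -0.13 for all genes. *Trem2*, a lipid-sensing receptor that signals through *Tyrobp*, had 133 CPM in untreated and 907 in treated macrophages (2.77, interval 2.64 to 2.91). *Clec4d* and *Clec4e*, C-type lectins that signal through *Fcer1g*, were also higher (1.72 and 1.56). *Sirpb1a* (-2.03), *Klrk1* (-1.80) and *Trem3* (-1.68) were lower. The share of macrophages with *Gpnmb* differed between the libraries too, as given above, and its part in the ratio of *Trem2* was not tested.

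The genes downstream of the receptors were read beside the same shares of all genes in macrophages, 4.13% higher and 6.80% lower. Of 26 kinases and adaptors, 25 could be compared in macrophages, and 2 were higher past 2-fold in treated mice, *Lat2* (1.64) and *Malt1* (1.06), and 0 lower, with a median of -0.25. Of 14 inhibitors of this signal, 0 were higher and 2 lower, the adaptors *Dok2* (-1.26) and *Dok3* (-1.06), with a median of -0.15. Of 11 other Fc receptors 4 could be compared and 0 were past 2-fold. In patrolling monocytes *Trem2* (1.98) was higher and *Trem1* (-1.07) and *Card9* (-1.21) were lower among the named genes. In inflammatory monocytes 0 genes of any list were past 2-fold in either direction, beside 1.86% higher and 4.28% lower of 7306 genes. In neutrophils 1 of 13 pairing receptors was higher and 1 of 23 kinases and adaptors lower, beside 4.45% higher and 6.70% lower of all genes there. Of the 25 kinases and adaptors with at least 20 UMIs in their highest class, 13 had their highest level in patrolling monocytes of MRL/lpr mice.

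Between control and MRL/lpr mice these lists could be read in patrolling monocytes. *Clec4n*, the receptor Dectin-2, had 108 CPM in control and 552 in MRL/lpr mice (2.35, interval 1.82 to 2.95), and *Clec4d* (1.20) and *Fcrl5* (2.07, with 2 UMIs in control) were higher too. *Klrk1* (-3.20) and *Vav3* (-1.28) were lower. The medians of the lists were 0.27 for pairing receptors, 0.18 for kinases and adaptors, -0.10 for inhibitors and 0.45 for the 5 other Fc receptors that could be compared, beside -0.12 for all genes.

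A large part of the members' UMIs came from cells that met the rule for no class. These cells held 28.4% of the *Fcgr1* UMIs, 28.0% of *Fcgr2b* and 28.2% of *Fcer1g* in MRL/lpr mice, and 37.2%, 41.3% and 37.8% in treated mice. Levels there were 1626 and 2626 CPM of *Fcer1g* in MRL/lpr and treated mice, below those of the macrophage, monocyte and neutrophil classes of the same library. Clustering without the members placed many of them with myeloid cells. In treated mice a cluster of 1093 cells, of which 30.2% met the rule for a class, stayed without a name and was led by *Gm15056*, *Mpeg1* and *Apoc2*. It had 6122 CPM of *Fcer1g*, 3630 of *Tyrobp*, 287 of *Fcgr4*, 62.4 of *Fcgr1*, 65.8 of *Fcgr2b* and 35.9 of *Fcgrt*. In MRL/lpr mice an unnamed cluster of 77 cells, led by *Cxcl14* and *Clec4b1*, had 2023 CPM of *Fcgr4* and 10790 of *Fcer1g* but 2.59 of *Fcgr2b*, beside 3216 of *C1qa* and 469 of *Cd300e*. It had the highest *Fcgr4* level of any cluster or class named here.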

How the data were processed

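Glomerular cells were captured in droplets in 3 libraries, and the authors deposited UMI counts per gene for all barcodes, from before cells were called or values scaled. The submitters' processing notes name STAR, Cell Ranger and mm10. Cells, filters, classes and levels were then computed here. A class took cells with at least 3 of its markers and at least 2 more than of any other class, and members were no markers. A marker counted where it had a UMI and a share of the cell's UMIs at or above that in empty droplets of the library. This bar differed between libraries, since the 29 myeloid markers summed to 761, 3222 and 3560 CPM in empty droplets of control, MRL/lpr and treated mice. Cells of the NK class could have no T cell marker by this count. Doublets beyond those this rule leaves out were kept, and their removal with Scrublet was an alternative. Levels carry exact Poisson intervals, ratios exact conditional binomial intervals and shares exact binomial intervals, all at 95%. A gene at 0 was set to 3 counts over the class. Genes with at least 20 UMIs over both libraries entered a comparison, and a ratio past 2-fold counted as a call. Named genes are the 8 members, up to 3 genes per list and direction past 2-fold with at least 50 UMIs, the 3 genes most like each member among those with at least 200 UMIs, and markers where a result turns on them. Some genes that this rule names are not reported here. *Gpnmb* and the leading genes of unnamed clusters were chosen after their values were seen. The members and the lists were chosen with earlier results of these data known. The UMI floor, mitochondrial limit, gene limit, gate, clusters, free RNA, shared barcodes, centring, cell weights and entry limit were varied. Free RNA was profiled in barcodes with at most 100 UMIs. Positions and transcripts are from GENCODE M21, where all 8 IDs matched, and promoters from RefSeq. The ratio of levels and its interval were tested on simulated counts, and the other steps were not. Clustering ran in scanpy 1.11.5 and statistics in scipy 1.17.1, with pandas 2.3.3, numpy 2.4.6 and matplotlib 3.10.9 under Python 3.11.15.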

Additional observations from a re-analysis of the deposited data

Results flagged for a closer look

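*Fcgr2b* was higher in treated than in untreated MRL/lpr mice in patrolling monocytes (log2 ratio 0.66) and lower in macrophages (-0.71), so the ratios of these classes point in opposite directions with intervals that both leave out 0. *Tyrobp* was higher in treated macrophages (0.20) and lower in treated inflammatory monocytes (-0.08), patrolling monocytes (-0.05) and neutrophils (-0.21). With 1 library for each condition, the differences between classes were not tested.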

How the results depend on the processing

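Over the 40 ratios of members past 2-fold in the 4 myeloid and 4 kidney classes, leaving out barcodes shared between libraries kept 40 of 40, centring on the median of all genes 39 of 40, 1 more marker 38 of 40, Leiden clusters 32 of the 37 that had a value, and subtraction of free RNA 19 of 30. The log2 ratio of *Fcgrt* in treated over untreated macrophages ran from -2.16 to -1.91 over 11 alternatives, that of *Fcgr2b* from -0.80 to -0.55 in macrophages and from 0.44 to 0.68 in patrolling monocytes, and that of *Fcgr1* in inflammatory monocytes from 0.50 to 1.11. The change of activating receptors over *Fcgr2b* ran from 0.28 to 0.77 in macrophages, the latter with Leiden clusters, and from -1.11 to -0.76 in patrolling monocytes. The share of all genes past 2-fold was computed in the main setting alone, so the counts of members below have no background beside them. Counts of members past 2-fold in treated over untreated mice moved in 4 classes. In inflammatory monocytes the 1 call became 0 with at most 5% mitochondrial UMIs, at most 3000 genes, Scrublet doublets removed, 1 more marker or Leiden clusters, and 2 with free RNA subtracted or the mean of per-cell CPM. Neutrophils had 1 instead of 0 with Leiden clusters or per-cell means. Mesangial cells had 6 instead of 1 with at most 3000 genes, 7 with Leiden clusters, 7 with free RNA subtracted and 5 with per-cell means, and proximal tubule cells 4 instead of 2 with at most 3000 genes and 0 with free RNA subtracted. In untreated over control mice patrolling monocytes had 4 instead of 2 with Leiden clusters, and mesangial cells 3 instead of 5. Podocytes had 3 instead of 7 with at most 3000 genes and 4 with Scrublet. With free RNA subtracted 4 members were past 2-fold in endothelial cells, all lower where 7 had been higher, 3 in podocytes instead of 7 (*Fcer1g* lower, *Fcgr2b* higher, and *Syk*, which had 0 UMIs left in MRL/lpr podocytes and passes only through the floor of 3 counts), and 1 each in mesangial and proximal tubule cells instead of 5 and 4. Under that subtraction fitted log2 ratios were below 0 for *Fcgr1* (-0.18), *Fcgr4* (-1.77), *Fcer1g* (-5.57), *Tyrobp* (-4.10) and *Syk* (-2.35) in endothelial cells, *Fcer1g* (-0.37) in mesangial cells, *Fcgr4* (-0.41), *Fcer1g* (-2.76) and *Tyrobp* (-0.66) in podocytes and *Fcgr4* (-0.37) in proximal tubule cells. Where fewer than 3 UMIs were left in a library, 3 were used, so the sizes and for low counts the signs depend on that floor. In MRL/lpr endothelial cells the share subtracted was 15.3%, while *Fcer1g* and *Tyrobp* stood at 0.113 and 0.104 times empty droplets. Their 0 UMIs left, and the signs of their ratios, therefore follow from that share. *Fcgr4* in proximal tubule cells had 13.8 UMIs left in MRL/lpr and 0 in control mice, so its value is a lower bound and no reversal. The cause of these shifts was not tested. After the data had been seen, the macrophage split, cells without myeloid marker UMIs, levels by cluster and an NK gate open to T cell markers were added, and the last gave 48, 86 and 60 cells with 74.6, 40.9 and 37.6 CPM of *Fcgr3* in control, MRL/lpr and treated mice. No paired analysis was possible because each condition has 1 library. The number of cells limits the control myeloid classes, since 6 macrophages and 27 neutrophils leave receptor levels with few UMIs.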
